A study of Rattus norvegicus with 14 samples.

Results

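Ion channels and transmitter receptors of the rat were followed on liver arrays through 266 probe sets for 172 genes, out of 8740 probe sets and 4736 genes with a symbol. Members were all probe sets with 1 platform symbol that begins with Kcn, Scn, Cacn, Clcn, Trpc, Trpm, Trpv, Gabr, Gria, Grik, Grin, Grm, Chrn, Chrm, Htr, Drd or P2rx. The rule reads only the symbols. Grina, with 2 probe sets, shares only its first letters with the NMDA receptor genes and encodes a membrane protein named for its association with that receptor. Without it 264 probe sets for 171 genes are left.

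The study measured total RNA of the left lateral lobe of the liver of Rattus norvegicus on 14 Affymetrix arrays. Livers came from 4 magnesium-deficient samples (arrays 11 to 14), 5 magnesium-supplemented samples (arrays 1 to 5) and 5 samples on the standard diet (arrays 6 to 10). The labels name no strain, sex, age, magnesium content or feeding time. No source says that each array held a separate animal, so every p-value measures the spread between these samples, which may be technical.

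Ion channels are membrane pores that open to voltage, ligands or stretch and let potassium, sodium, calcium or chloride through. Transmitter receptors are either such pores, as the P2X, nicotinic, GABA-A and ionotropic glutamate receptors are, or proteins that signal through G proteins, as the muscarinic, dopamine, metabotropic glutamate and most serotonin receptors do. Most of these genes are known from neurons and muscle. In liver, potassium and chloride channels are known for setting the membrane potential, for cell volume and for bile formation, and P2X receptors respond to extracellular ATP. Magnesium ions block several of these pores from inside or outside the cell, the NMDA receptor being the textbook case.

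The hepatocyte markers (7 of 8 on the array) were all high, at log2 levels between 10.55 and 13.13, where a log2 level is the log2 of a normalised signal averaged over the 14 arrays. Signals below 3.93 units, or 1.97 on the log2 scale, were set to that floor. Most markers of the cell types in which these channels are known were below the dim-probe filter, a log2 level of 3.83. Neuron and nerve markers above it numbered 3 of 10, with a summed signal of 116 to 177 units on the deficient, 119 to 208 on the supplemented and 97.2 to 173 on the standard diet. Glia and Schwann cell markers numbered 1 of 3, with sums of 26.1 to 47.5 units on the deficient, 36.5 to 53.4 on the supplemented and 32.1 to 50.5 on the standard diet. Skeletal and heart muscle markers numbered 1 of 9, with sums of 68.9 to 83.5 units on the deficient, 65.2 to 101 on the supplemented and 71.6 to 90.4 on the standard diet. Acta1 and Tnni2, defining genes of skeletal muscle, were at the floor on all arrays. Islet markers numbered 2 of 5, with sums of 184 to 415 units on the deficient, 255 to 724 on the supplemented and 295 to 457 on the standard diet, and Iapp was at the floor on all arrays. Non-parenchymal liver cells were present by their markers, with 5 of 7 for smooth muscle and stellate cells, 3 of 4 for macrophages, 2 of 3 for endothelium and 3 of 4 for cholangiocytes above the filter. In such bulk samples fewer cells of a type and less RNA per cell cannot be told apart. The part of these cells in the channel values was not tested.

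Deficient array 13, supplemented array 5 and standard array 10 stood apart in the Gapdh ratio, the log2 ratio of the 3′ to the 5′ control probe set and a measure of RNA integrity. It was 2.68 on deficient array 13, -0.12 on supplemented array 5 and 2.65 on standard array 10, and between 0.757 and 1.92 on the others. By diet it was 1.84 ± 0.65 on the deficient diet (SD, n = 4), 0.71 ± 0.49 on the supplemented and 1.64 ± 0.61 on the standard diet (SD, n = 5 each). Both comparisons with the supplemented diet had an adjusted p of 0.0476 (exact two-sided permutation test, adjusted over 6 comparisons of array measures). In this test the smallest possible raw p for deficient minus supplemented was 0.00794. The same ratio of the beta-actin control probe sets was 1.85 ± 0.82 on the deficient diet (SD, n = 4), 0.96 ± 0.20 on the supplemented and 1.52 ± 0.71 on the standard diet (SD, n = 5 each). It did not pass, with an adjusted p of 0.0952 for deficient minus supplemented and 0.155 for supplemented minus standard in the same exact permutation tests. Supplemented array 5, with a beta-actin ratio of 1.29, lay within the range of the others (0.768 to 2.85), so it stood apart in the Gapdh ratio but not in this one.

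Most channel and receptor genes gave a signal in the range of background. The filter, the pooled 40th percentile of all values, was passed by 72 of 266 member probe sets (27.1%) and 64 of 172 member genes (37.2%), against 5133 of 8740 probe sets (58.7%) and 3073 of 4736 genes (64.9%) on the whole array. The median log2 level was 2.80 for member probe sets and 4.51 for all probe sets. At the floor on every array were 22 of 266 member probe sets (8.27%), against 522 of 8740 (5.97%). These are descriptions of the array, with no test, since no detection calls are known.

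A pair of stricter lines give a reading of what background is here. The first is the signal of 38 control probe sets for which the liver targets hold no matching RNA, such as antisense, bacterial and yeast ones. Their highest log2 level was 4.57, and 36 of 172 member genes (20.9%) lay above it, against 55.5% of all genes. The second is a list of 36 genes of pituitary, brain, eye, gut and other tissues that liver is not known to use. Their 90th percentile was 5.35 or 40.7 units, and 17 of 172 member genes (9.88%) lay above it, against 2185 of 4736 (46.1%). That list is no clean zero, as Npy, a brain neuropeptide, was at 6.01 and Mag, a myelin protein, at 5.94. Only Grina and 9 other member genes exceeded the whole list: Kcnk5, Kcnh3, Drd3, P2rx4, P2rx2, Kcnj15, Clcn3, Kcnh2 and Chrng.

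**Figure D1:**
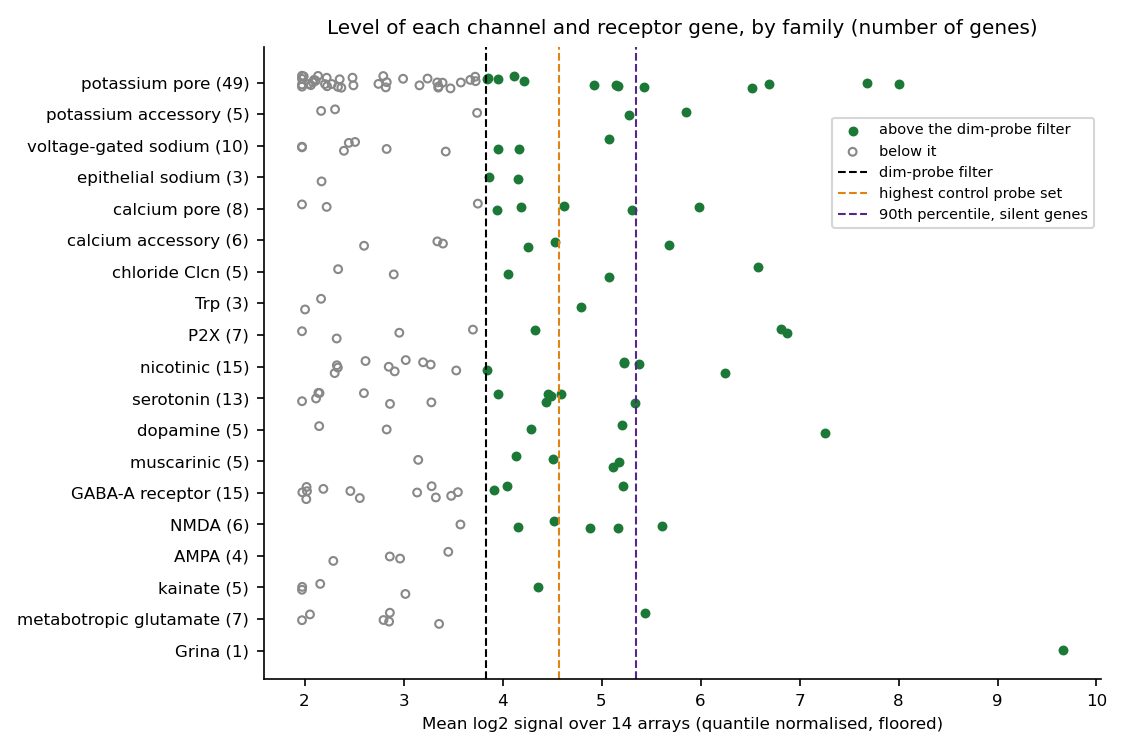
Mean log2 signal over 14 arrays of each of the 172 genes (points), by family with its number of genes in parentheses. Filled points lie above the dim-probe filter and open points below it, and dashed lines mark the filter (3.83), the highest control probe set (4.57) and the 90th percentile of the silent genes (5.35). Most genes lie left of the filter, and 17 lie right of the last line.

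By family, the genes above the filter ran from 0 of 4 AMPA receptor genes to 5 of 6 NMDA receptor genes, a spread that was not tested. Of the potassium channel pores 13 of 49 genes passed the filter, of their accessory subunits 2 of 5, of the voltage-gated sodium channels 3 of 10 and of the epithelial sodium channel subunits 2 of 3. Calcium channel pores passed with 5 of 8, calcium channel accessory subunits with 3 of 6, Clcn chloride channels and exchangers with 3 of 5, and the Trp family with 1 of 3. Among receptors the filter was passed by 3 of 7 P2X, 5 of 15 nicotinic, 4 of 5 muscarinic, 6 of 13 serotonin, 3 of 5 dopamine and 3 of 15 GABA-A genes. For glutamate, next to the NMDA genes, 1 of 7 metabotropic and 1 of 5 kainate genes passed. Gria1, the AMPA subunit with the highest signal, reached 3.45. Families with few genes or with many probe sets per gene cannot be ranked from these counts.

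Among the potassium channels 5 pore genes lay above the 90th percentile of the silent genes, namely Kcnk5, Kcnh3, Kcnj15, Kcnh2 and Kcnj1. Kcnk5 encodes TASK-2, a background potassium channel with a pair of pore domains that senses extracellular pH. It had 7.77, 7.55, 8.17 and 8.63 on the deficient diet, 7.80, 8.15, 8.20, 8.90 and 7.92 on the supplemented diet and 8.28, 7.79, 8.23, 7.14 and 7.59 on the standard diet, all on the log2 scale. All 14 arrays lay above every background line, and the diets overlapped. Its single probe set averaged 258 units. The deficient minus standard difference was 0.23 ± 0.29 (SE, limma, adjusted p = 0.999) and the supplemented minus standard difference 0.39 ± 0.27 (adjusted p = 0.680).

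Kcnj15 encodes Kir4.2, an inward rectifier known from kidney and other epithelia. It had 5.96, 6.43, 6.48 and 5.64 on the deficient diet, 7.08, 5.33, 6.54, 8.13 and 8.69 on the supplemented diet and 6.95, 6.49, 7.45, 4.13 and 8.37 on the standard diet. Its SD was 0.40 on the deficient, 1.33 on the supplemented and 1.59 on the standard diet, and the diets overlapped. The deficient minus supplemented difference was -1.03 ± 0.74 (SE, adjusted p = 0.553). Kcnj8, the pore subunit of vascular ATP-sensitive potassium channels, averaged 5.05 ± 0.24 on the deficient (SD, n = 4), 5.13 ± 0.26 on the supplemented and 5.29 ± 0.16 on the standard diet (SD, n = 5 each). Kcnh2, which encodes the heart potassium channel hERG, averaged 6.39 ± 0.35 on the deficient, 6.72 ± 0.20 on the supplemented and 6.43 ± 0.53 on the standard diet. Kcnh3, a brain channel of the same family, averaged 7.34 ± 0.29 on the deficient, 7.75 ± 0.50 on the supplemented and 7.90 ± 0.45 on the standard diet. No member of this group was called in any diet comparison. Kcnq1, a channel pore known from epithelia and heart, was at the floor on all 14 arrays.

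Clcn3 encodes a chloride and proton exchanger of endosomes. It had 7.01, 7.20, 6.78 and 6.47 on the deficient diet, 6.47, 6.59, 6.32, 6.73 and 4.22 on the supplemented diet and 6.60, 6.59, 6.92, 6.96 and 7.23 on the standard diet. Supplemented array 5 lay far below all others, and the diets overlapped. The supplemented minus standard difference was -0.80 ± 0.38 (SE, adjusted p = 0.547) and -0.33 without supplemented array 5. It was -0.15 with the Gapdh ratio as a covariate and -0.44 with array weights. Clcn7, the lysosomal member of the family, averaged 4.05 with supplemented array 5 at 2.09 and standard array 8 at 2.23. Clcn5, known from kidney endosomes, was below the filter at 2.90.

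P2rx4 encodes an ATP-gated cation channel of lysosomes and macrophages. It had 6.82, 7.23, 7.17 and 6.95 on the deficient diet, 6.90, 6.71, 6.55, 7.17 and 7.20 on the supplemented diet and 7.09, 6.33, 6.58, 6.56 and 6.92 on the standard diet. The diets overlapped, with a deficient minus standard difference of 0.35 ± 0.20 (SE, adjusted p = 0.999). P2rx7, the ATP receptor of macrophages that opens a large pore, was just under the filter at 3.70.

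Promoter sequences are shown for 3 genes with a single probe set and a signal above background, Kcnk5, Clcn3 and Kcnj15, and for Scn4a, the sodium channel gene with the smallest p by diet. Each is the 250 bases before the gene's start on its own strand, from RefSeq on build GRCr8, with each CpG in capitals. Kcnk5 lies at chr15:4171375-4171624 on the plus strand, Clcn3 at chr16:34137754-34138003 on the plus strand, Kcnj15 at chr11:48070700-48070949 on the plus strand and Scn4a at chr10:91796325-91796574 on the minus strand.
Kcnk5: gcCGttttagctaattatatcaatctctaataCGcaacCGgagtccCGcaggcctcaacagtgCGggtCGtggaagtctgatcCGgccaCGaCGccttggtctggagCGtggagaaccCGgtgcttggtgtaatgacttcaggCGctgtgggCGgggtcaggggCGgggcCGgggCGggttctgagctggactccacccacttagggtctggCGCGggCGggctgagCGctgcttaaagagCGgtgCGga
Clcn3: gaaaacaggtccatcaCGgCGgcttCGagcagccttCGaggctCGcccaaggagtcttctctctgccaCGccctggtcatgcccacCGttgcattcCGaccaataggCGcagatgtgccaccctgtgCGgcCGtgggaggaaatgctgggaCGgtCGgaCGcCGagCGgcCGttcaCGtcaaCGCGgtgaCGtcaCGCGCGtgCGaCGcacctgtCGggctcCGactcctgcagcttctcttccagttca
Kcnj15: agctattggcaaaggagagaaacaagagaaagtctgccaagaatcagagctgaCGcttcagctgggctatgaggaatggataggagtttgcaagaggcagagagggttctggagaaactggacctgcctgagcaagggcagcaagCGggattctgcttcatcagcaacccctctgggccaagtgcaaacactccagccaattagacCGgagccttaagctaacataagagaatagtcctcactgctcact
Scn4a: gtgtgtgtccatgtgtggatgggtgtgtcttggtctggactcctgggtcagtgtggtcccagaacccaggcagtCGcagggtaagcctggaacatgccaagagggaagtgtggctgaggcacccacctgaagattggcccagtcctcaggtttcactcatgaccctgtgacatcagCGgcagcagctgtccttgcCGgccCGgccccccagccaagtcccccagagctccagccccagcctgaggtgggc
The Kcnk5 window holds 22 CpG and that of Clcn3 28, with ratios of observed to expected CpG of 0.92 and 1.09. Kcnj15 has 3 and Scn4a 4, with ratios of 0.19 and 0.16. Among the 46 member genes above the filter that matched the promoter table, 21 (45.7%) had a ratio above 0.6, and among the 83 matched members not above the filter 34 (41.0%) did. Of all array genes the share was 63.6% of 2530 above the filter and 42.7% of 1341 not above it, and of all 27457 genes in the promoter table it was 35.4%. The motif searched was the pair CG, which reads the same on both strands, and 129 of 172 member genes had a promoter entry. These shares were not tested.

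Single-probe-set genes stand on 1 measurement, and genes with several often disagreed. Of 66 member genes with more than 1 probe set, 29 had at least 1 above the filter. In 5 of the 29 all probe sets were above it, and in 24 (82.8%) only some were, against 521 of 1249 (41.7%) over all genes of the array. Drd3, the dopamine D3 receptor gene of the brain, read 7.25 on 1 probe set and 2.05 on the other, which was at the floor on 13 of 14 arrays. P2rx2, an ATP-gated channel of sensory neurons, read 6.81 and 6.64 on 2 of 6 probe sets and between 2.11 and 2.21 on the other 4. Kcnh2 read 6.52 and 2.70, and Cacna1a, the pore of neuronal P/Q-type calcium channels, read 5.99 on 1 of 4 probe sets and 2.03 to 2.54 on the other 3. Kcnmb1, the smooth muscle beta subunit of the large-conductance calcium-activated potassium channel, read 5.85 and 2.83. Htr3a, the serotonin-gated cation channel, read 5.33 on 1 of 3 probe sets and 2.29 and 2.18 on the others. Kcnh3 was one of the 5 genes above the filter throughout, at 7.69 and 4.12, and Grina another, at 9.66 and 8.52. Which probe set of a pair measures the transcript was not tested.

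**Figure D2:**
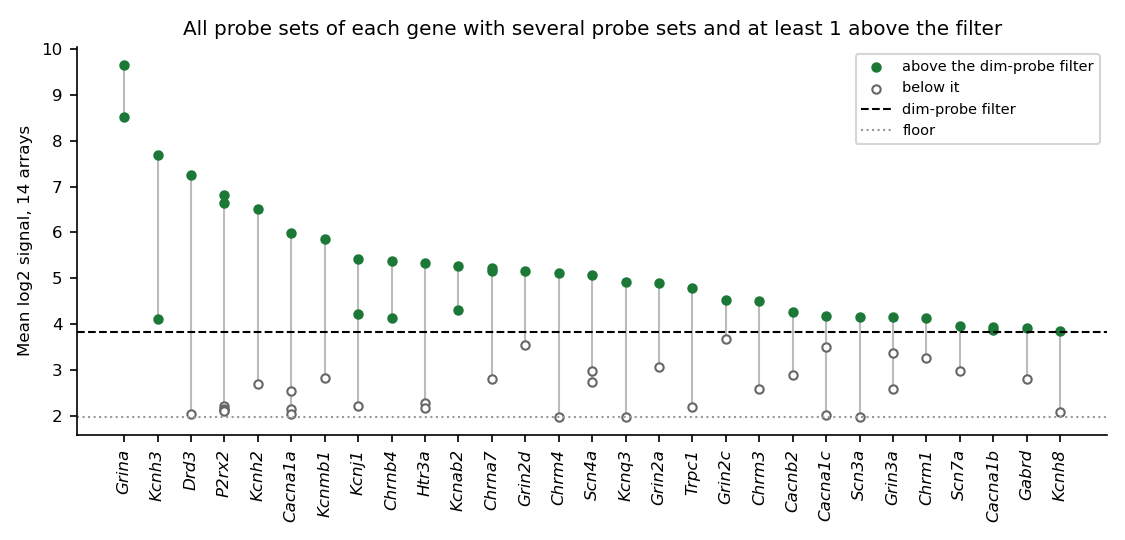
Mean log2 signal over 14 arrays of every probe set (points) of the 29 member genes that have several probe sets and at least 1 above the filter, joined by a grey line per gene. Filled points lie above the dashed filter line and open points below it, and the dotted line is the floor. In 24 of the 29 genes the points lie on both sides of the filter.

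Of 27 channel and receptor genes described in liver cells, 19 were on the array and 9 passed the filter. These were Kcnk5, P2rx4, Clcn3, Kcnj8, Clcn7, Trpc1, Chrm3, Htr2b and Scnn1a. Trpc1, a calcium-permeable cation channel of the plasma membrane, averaged 4.79, Chrm3, the muscarinic receptor coupled to calcium release, 4.51 and Htr2b, a serotonin receptor known from stellate cells, 4.46. Scnn1a, the alpha subunit of the epithelial sodium channel, averaged 4.16. These 4 lay above the filter, and Scnn1a, Chrm3, Htr2b and also Clcn7 were under the highest control probe set. Below the filter were Cacna1d at 3.75, P2rx7, Grin1 at 3.57, Kcnj16 at 3.35, Gabre at 3.33, Clcn5, Kcnma1 at 2.83, Htr2a at 2.60, Grm5 at 2.05 and Kcnq1. Cacna1d encodes an L-type calcium channel pore, Grin1 the obligatory NMDA receptor subunit, and Kcnma1 the pore of the large-conductance calcium-activated potassium channel. Grin2b, an NMDA subunit that needs Grin1 to form a receptor, averaged 5.61 and lay above the 90th percentile of the silent genes.

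**Figure D3:**
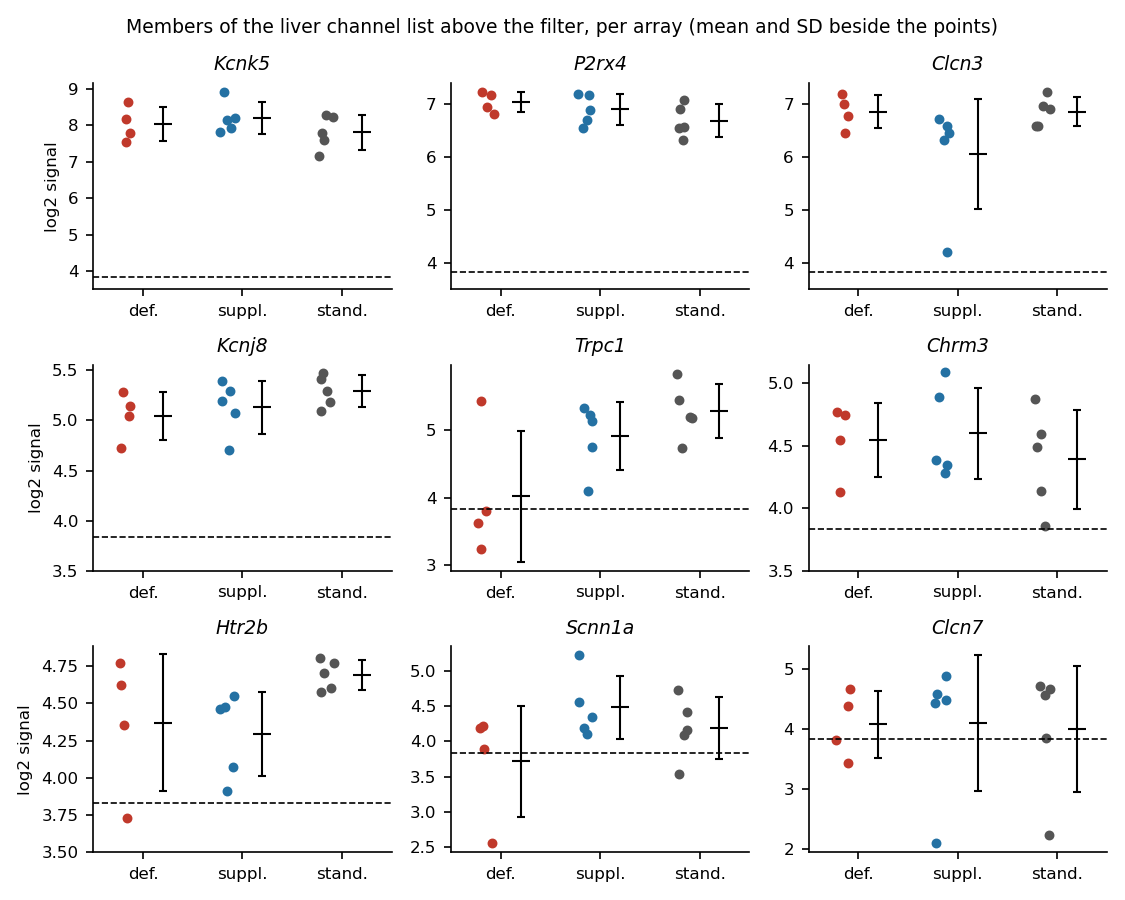
Log2 signal per array (points) of the 9 genes of the liver channel list above the filter, for the deficient (def., 4 arrays), supplemented (suppl., 5 arrays) and standard (stand., 5 arrays) diets. The bar beside each group is the mean and SD, and the dashed line is the filter at 3.83. Kcnk5 is above the filter on every array, and supplemented array 5 sets Clcn3 apart at 4.22.

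The diets were then compared in 1 limma model over the 5133 probe sets above the filter, of which 72 were members, with p-values adjusted over all 5133. No member was called at an adjusted p under 0.05 in any comparison. Over all probe sets 0.0% were called for deficient minus standard and 0.0% for supplemented minus standard, and 0.0195% (1 probe set, of a gene outside these families) for deficient minus supplemented and 0.0195% for the F-test over the 3 diets. The smallest adjusted p of a member was 0.999, 0.510, 0.264 and 0.422 in the same order. An unadjusted p under 0.05 was found for 7 of 72 members (9.72%) for deficient minus standard against 3.04% of all probe sets, and 2 (2.78%) for supplemented minus standard against 8.88%. There were 10 (13.9%) for deficient minus supplemented against 13.0%, and 5 (6.94%) for the F-test against 9.0%. By direction the 7 were all lower, where the background was 1.71% lower and 1.32% higher, and the 2 were 1 lower and 1 higher, against 4.73% and 4.15%. The 10 were 9 lower and 1 higher, against 6.18% and 6.86%. Of the 72 members 11 (15.3%) had a deficient mean under the filter, against 2.61% of all probe sets. These had to be lower on the deficient diet than on at least 1 other, so the directions are partly set by the filter. Kcnh4 and Drd4, counted in the 7 and the 10, and Grik5, counted in the 10, are among them. Without deficient array 13 the 7 became 4 and the 10 became 4. The 10 became 5 without deficient array 14 and 6 without supplemented array 5, and the 2 became 0 without supplemented array 5 or standard array 9 and 1 without standard array 7, 8 or 10.

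Scn4a, the voltage-gated sodium channel of skeletal muscle, had the smallest p between the deficient and standard diets. It had 3.54, 4.70, 4.47 and 4.14 on the deficient diet, 5.83, 4.25, 5.27, 5.23 and 5.69 on the supplemented diet and 5.99, 5.58, 4.94, 5.73 and 5.73 on the standard diet. The deficient and standard arrays did not overlap, and 1 deficient array was under the filter. The difference was -1.38 ± 0.33 (SE, limma, unadjusted p = 0.000734, adjusted p = 0.999) against the standard diet and -1.04 ± 0.33 (adjusted p = 0.264) against the supplemented diet. The signal came from 1 of 3 probe sets, the others averaging 2.97 and 2.74. With the mean of the 3 probe sets the differences were -0.45 and -0.24. Skeletal and heart muscle markers above the filter numbered 1 of 9, and their part in this result was not tested.

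Trpc1 had 3.62, 5.44, 3.23 and 3.80 on the deficient diet, 5.33, 5.14, 4.76, 5.22 and 4.10 on the supplemented diet, and on the standard diet 5.20, 5.18, 5.83, 5.45 and 4.73. Deficient arrays 11, 13 and 14 lay under the filter and below all standard arrays, and deficient array 12 lay among them. The deficient minus standard difference was -1.26 ± 0.40 (SE, adjusted p = 0.999) and the deficient minus supplemented difference -0.89 ± 0.40 (adjusted p = 0.373). With the mean of its 2 probe sets, of which the other averaged 2.20, the first was -0.53.

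Grm4, Kcnh4 and Chrm4 had the next smallest p for deficient minus standard. Grm4, a presynaptic metabotropic glutamate receptor, had 4.96, 5.55, 4.82 and 4.83 on the deficient diet and 6.05, 5.59, 5.75, 5.52 and 5.32 on the standard diet, a difference of -0.61 ± 0.21 (SE, adjusted p = 0.999) with 1 deficient array among the standard ones. Kcnh4, a brain potassium channel, had 4.11, 3.72, 2.91 and 3.70 on the deficient diet and 4.39, 4.14, 5.00, 4.16 and 4.30 on the standard diet, a difference of -0.79 ± 0.29 (adjusted p = 0.999) with no overlap. Its deficient mean of 3.61 and 3 of the 4 deficient arrays lay under the filter, so Kcnh4 entered the test through the other diets. Chrm4, a muscarinic receptor that inhibits adenylyl cyclase, had 5.03, 5.19, 4.64 and 4.77 on the deficient diet and 5.40, 5.27, 5.24, 5.51 and 5.24 on the standard diet. Its difference was -0.42 ± 0.17 (adjusted p = 0.999), with no overlap, and -0.21 with the mean of its 2 probe sets. Drd4 and Kcnh7 completed the 7 and are named after their values were seen. The deficient mean of Drd4 lay under the filter, so Drd4 also entered the test through the other diets.

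Members whose deficient and standard arrays did not overlap were 4 of 72, namely Scn4a, Kcnh4, Chrm4 and Kcnh7, the last named after its values were seen, against 1.44% of all probe sets. Supplemented and standard arrays did not overlap for 2 members, Htr2b and Chrm4, against 1.81%. Deficient and supplemented arrays did not overlap for 1, Grik5, against 4.95%. Kcnh4 and Grik5 are among the members with a deficient mean under the filter, at 3.61 and 3.78.

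Grik5, a kainate receptor subunit, had the smallest p between the supplemented and standard diets. It had 4.31, 3.76, 2.57 and 4.49 on the deficient diet, 4.88, 4.99, 4.81, 5.09 and 5.90 on the supplemented diet and 4.51, 5.00, 4.53, 3.28 and 2.89 on the standard diet. The supplemented arrays were tight except array 5, and the spread lay in the other diets, with deficient arrays 12 and 13 and standard arrays 9 and 10 under the filter. Its deficient mean of 3.78 lay under the filter, so Grik5 entered the test through the other diets. The supplemented minus standard difference was 1.09 ± 0.44 (SE, adjusted p = 0.510) and the deficient minus supplemented difference -1.35 ± 0.47 (adjusted p = 0.30). With the Gapdh ratio as a covariate they were 0.27 and -0.35, and without the 3 arrays that stood apart 0.61 and -0.76. The second was -0.81 with the beta-actin ratio as a covariate.

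The other genes with the smallest p for supplemented minus standard were Chrna7, Clcn3, Htr2b and Chrm5. Chrna7, the nicotinic receptor subunit of neurons and macrophages, had 4.60, 5.62, 5.13, 4.63 and 4.83 on the supplemented diet and 5.27, 5.80, 5.48, 5.88 and 5.21 on the standard diet, a difference of -0.57 ± 0.25 (SE, adjusted p = 0.517) that was -0.22 with the mean of its 3 probe sets. Htr2b had 3.91, 4.55, 4.48, 4.46 and 4.07 on the supplemented diet and 4.81, 4.58, 4.77, 4.60 and 4.70 on the standard diet, with no overlap. Its difference of -0.40 ± 0.23 (adjusted p = 0.623) was -0.22 with the values as deposited and -0.19 with the Gapdh ratio as a covariate. Chrm5, a muscarinic receptor of brain and vessels, had 5.09, 5.27, 5.57, 5.35 and 6.17 on the supplemented diet and 4.69, 4.93, 5.29, 5.51 and 5.01 on the standard diet. Its groups overlapped, and its difference of 0.40 ± 0.23 (adjusted p = 0.628) was 0.23 without supplemented array 5, 0.26 with array weights, 0.21 without the 3 arrays that stood apart and 0.11 with the Gapdh ratio as a covariate.

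Between the deficient and supplemented diets the smallest p belonged to Scn4a, Grik5, Kcnmb1, Grm4 and Chrm5. Kcnmb1 had 5.75, 5.78, 5.46 and 5.12 on the deficient diet and 5.70, 5.91, 5.94, 6.18 and 6.93 on the supplemented diet, overlapping at 5.70. Its difference was -0.60 ± 0.24 (SE, adjusted p = 0.332), and it was -0.34 with array weights and -0.38 both without the 3 arrays that stood apart and with the mean of its 2 probe sets. Grm4 was at -0.52 ± 0.21 (adjusted p = 0.335), or -0.27 with the Gapdh ratio as a covariate. Chrm5, at 4.87, 5.31, 4.64 and 4.76 on the deficient diet, was at -0.59 ± 0.24 (adjusted p = 0.337). It was -0.37 with array weights, -0.24 with the Gapdh ratio as a covariate and -0.34 without the 3 arrays that stood apart.

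**Figure D4:**
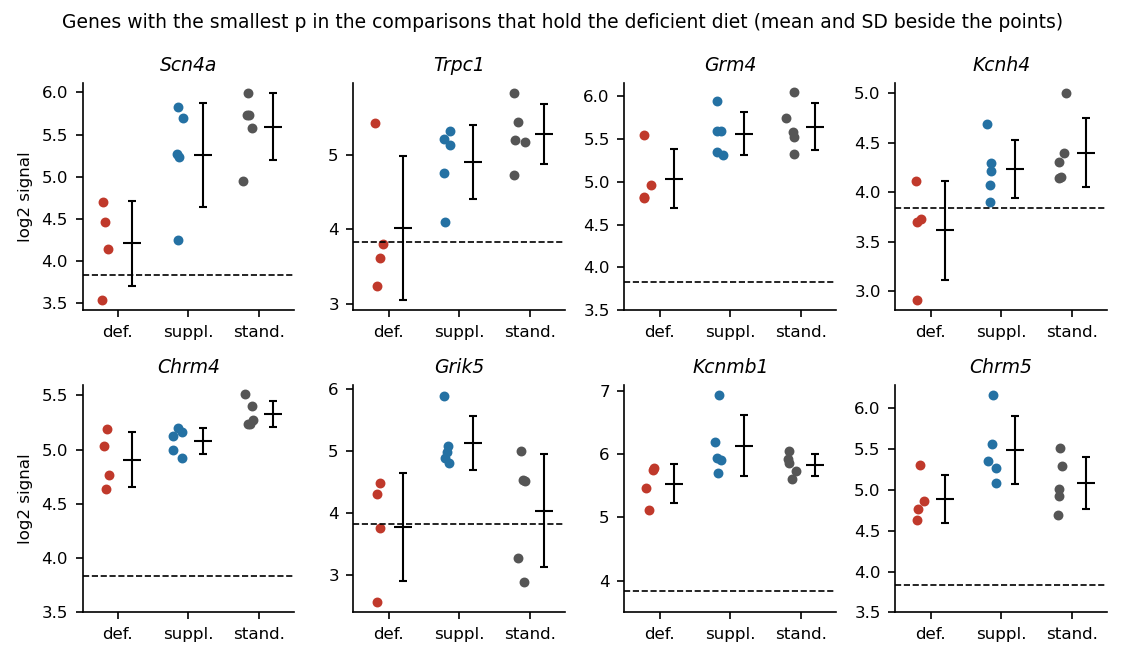
Log2 signal per array (points) of 8 genes with the smallest p in the comparisons with the deficient diet, for the deficient (def., 4 arrays), supplemented (suppl., 5 arrays) and standard (stand., 5 arrays) diets. The bar beside each group is the mean and SD, and the dashed line is the filter at 3.83. For Scn4a, Kcnh4 and Chrm4 all deficient points lie below all standard points, and none of the 8 genes had an adjusted p under 0.05.

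Most member probe sets above the filter had a lower mean on the deficient diet, although none was called. For deficient minus standard 53 of 72 (73.6%) were lower with a median of -0.23, against 49.9% and a median of 0.00 over all probe sets. For deficient minus supplemented 54 of 72 (75%) were lower with a median of -0.20, against 47.5% and 0.02. For supplemented minus standard 36 of 72 were lower with a median of -0.01, against 52.2% and -0.02. The first pair of comparisons share the deficient arrays, so they are not separate evidence, and members passed the filter on their mean over all diets. Of the 72 probe sets 11 (15.3%) had a deficient mean under the filter, against 2 (2.78%) with a supplemented and 2 with a standard mean under it, so these 11 entered through the other diets and had to be lower on the deficient diet than on at least 1 of them. Over all 5133 probe sets the shares were 2.61% for the deficient, 2.55% for the supplemented and 2.2% for the standard diet. By family, lower values for deficient minus standard were found in 10 of 15 potassium pore probe sets, 5 of 6 calcium pore probe sets, 6 of 7 nicotinic and 3 of 3 voltage-gated sodium channel probe sets, and in 3 of 6 of the serotonin receptors and 1 of 3 Clcn probe sets.

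The lean was uneven between arrays, and its size depended on a few of them. The median deviation of the 72 probe sets from their own 14-array means was 0.03, 0.14, -0.21 and -0.44 on deficient arrays 11 to 14. On the supplemented arrays it was -0.01, -0.05, 0.02, 0.10 and 0.50, with array 5 the highest of all, and on the standard arrays 0.29, -0.04, 0.14, 0.08 and 0.02. Deficient arrays 11 and 12 thus lay among the standard arrays, and arrays 13 and 14 below all of them. Over all probe sets above the filter the same medians lay between -0.01 and 0.06 on every array. Quantile normalisation gives all arrays the same distribution of values, which largely sets these medians and the shares lower over all probe sets. With the values as deposited, 78.9% of members were lower for deficient minus standard, against 52.3% of all probe sets. The shares were 87.3% against 57.4% for deficient minus supplemented and 32.4% against 42.3% for supplemented minus standard.

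Without deficient array 14 the share lower for deficient minus standard was 59.7% (43 of 72) with a median of -0.13, against 47.6% of all probe sets. For deficient minus supplemented it was then 59.7% with a median of -0.09, against 46.0%. Without supplemented array 5 the share for deficient minus supplemented was 66.7% with a median of -0.10, against 48.0%. With array weights the shares were 63.9% and 54.2%, with the Gapdh ratio as a covariate 69.4% and 58.3%, and without the 3 arrays that stood apart 69.4% and 55.6%. Without any filter they were 52.6% and 50.8% of 266, against 46.4% and 45.9% of all probe sets. Probe sets at the floor on every array count as not lower in these shares. Members of both level ranges had this direction more often than other probe sets of the same range. Between the filter and a log2 level of 5, 27 of 38 members (71.1%) were lower for deficient minus standard, against 49.3% of 1224 other probe sets, and between 5 and 7, 23 of 29 (79.3%) against 50.1% of 1881. The 11 members with a deficient mean under the filter were not left out here. The share in the range next to the filter, which holds Kcnh4 and Grik5, is therefore partly set by the filter. Of the 7 silent genes above the filter 6 were lower for deficient minus standard, with a median of -0.18. For deficient minus supplemented 4 of the 7 were lower, with a median of -0.04. Of the 38 control probe sets 21 were lower in each of these comparisons, with medians of -0.12 and -0.07, but their values were not floored here. Among markers of cell types rich in these channels, the medians for deficient minus standard and deficient minus supplemented were -0.21 and -0.24 for the 3 neuron and nerve genes above the filter, and -0.41 and -0.48 for the 2 islet genes. They were -0.20 and 0.12 for the 1 skeletal and heart muscle gene and -0.05 and -0.03 for the 1 glia and Schwann cell gene. Those of liver cells were -0.03 and -0.06 for the 7 hepatocyte genes, 0.06 and 0.11 for smooth muscle and stellate cells, 0.00 and -0.28 for macrophages, 0.17 and -0.01 for endothelium and 0.40 and 0.34 for cholangiocytes. The part of these cells, of background signal and of RNA integrity in the lean was not tested.

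**Figure D5:**
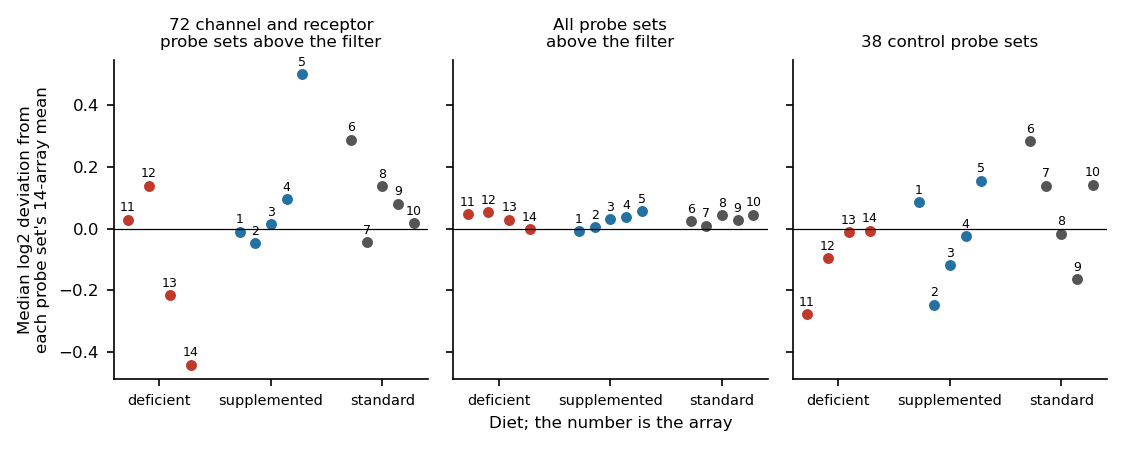
Median log2 deviation from each probe set's 14-array mean (points, numbered by array) for the 72 channel and receptor probe sets above the filter (left), all probe sets above the filter (middle) and 38 control probe sets (right, values not floored), by diet. In the left panel deficient arrays 13 and 14 lie at -0.21 and -0.44 and supplemented array 5 at 0.50. The middle panel stays between -0.01 and 0.06, a range largely set by the quantile normalisation.

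Genes of the same pathways outside these families were taken from a list of 55 channels, pumps, coupled receptors and anchoring proteins, of which 37 were on the array and 27 passed the filter. None was called in either direction. At an unadjusted p under 0.05, 0 of 27 were higher and 2 lower for deficient minus standard (7.41%, against 3.04% of all probe sets). For supplemented minus standard 1 was higher and 2 lower (11.1%, against 8.88%), and for deficient minus supplemented 3 were higher and 1 lower (14.8%, against 13.0%). Itpr3, an inositol trisphosphate receptor that releases calcium from the endoplasmic reticulum, was at -0.58 ± 0.21 for deficient minus standard (SE, adjusted p = 0.999). Dlg4, the postsynaptic scaffold PSD-95, was at -0.72 ± 0.33 in the same comparison (adjusted p = 0.999). Vdac1, the anion channel of the outer mitochondrial membrane, averaged 6.86 ± 0.65 on the deficient (SD, n = 4), 8.03 ± 0.27 on the supplemented and 7.11 ± 0.92 on the standard diet (SD, n = 5 each). Its differences were -1.17 ± 0.40 for deficient minus supplemented (SE, adjusted p = 0.297) and 0.92 ± 0.38 for supplemented minus standard (adjusted p = 0.516). Atp2b1, a calcium pump of the plasma membrane, was at 1.00 ± 0.41 for deficient minus supplemented (adjusted p = 0.339) and -1.11 ± 0.39 for supplemented minus standard (adjusted p = 0.492), with supplemented arrays between 2.55 and 5.10. Adcy6, an adenylyl cyclase, was at 0.79 ± 0.24 for deficient minus supplemented (adjusted p = 0.264). Lrrc8a, the obligatory subunit of the volume-regulated anion channel, averaged 4.89 ± 0.33 on the deficient (SD, n = 4), 2.67 ± 1.55 on the supplemented and 4.92 ± 0.55 on the standard diet (SD, n = 5 each). It was at the floor on 4 of 14 arrays, with a supplemented minus standard difference of -2.25 ± 0.57 (SE, adjusted p = 0.474) and a deficient minus supplemented difference of 2.23 ± 0.61 (adjusted p = 0.254). Its supplemented mean lay under the filter, so Lrrc8a entered the test through the other diets.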

How the data were processed

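Total RNA of rat liver was hybridised to an Affymetrix rat array, about 5 microgram per target per the labels. The authors deposited 1 linear intensity per probe set and array. The software behind it is not given in the sources used here, and no detection calls are known. Every array had a trimmed mean of 150.3 units (top and bottom 2% left out), so the arrays carried a common scaling of that mean. Their median signals still differed. They were 18.0 units on deficient array 13, 20.0 on deficient array 14 and 34.4 on supplemented array 5, and between 22.3 and 27.8 on the others. Precision is limited by how many arrays there were.

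The 59 control probe sets were set aside. Values of the other 8740 were quantile normalised on the log2 scale (limma 3.58.1, R 4.3.3), floored at the pooled 20th percentile and kept for testing when they averaged more than the pooled 40th percentile, which left 5133. Diets were read from the sample titles. Differences were tested with lmFit and eBayes with a trend in 1 model of 3 diets, two-sided, with Benjamini-Hochberg adjustment over all 5133 and a threshold of 0.05. Fold changes of dim probe sets are understated by the floor. The fit was tested on simulated data.

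Symbols came from the platform annotation, where 7006 probe sets had 1 symbol, 308 several and 1426 none, and all 172 member symbols were found in RefSeq. The probe set with the highest mean stood for a gene. Named genes were the highest of each family, the 12 highest over all, the 5 with the smallest p in each comparison and the liver channel list. The members and lists were chosen with earlier results of these data known. Alternatives covered scaling, floor, filter, model, covariates and single arrays.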

Additional observations from a re-analysis of the deposited data

Results flagged for a closer look

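An array lay far from the rest of its diet, by a gap set against the range of the group, 7 times in 87 groups of 29 genes by 3 diets. For independent values with normal scatter such a rule flags about 1 in 20 groups, but these groups share the same arrays. Supplemented array 5 accounted for 4 of the 7. On it P2rx2 was at a log2 level of 7.99, where the other supplemented arrays lay between 6.65 and 6.91, and Grik5 was at 5.90 against 4.81 to 5.09. Clcn3 was at 4.22 there against 6.32 to 6.73, and Clcn7 at 2.09 against 4.43 to 4.87. Chrng, the fetal muscle nicotinic receptor subunit, was at 6.60 on supplemented array 4 against 6.02 to 6.17, and at 6.24 on standard array 6 against 6.50 to 6.54. Kcnh4 was at 5.00 on standard array 8 against 4.14 to 4.39.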

How the results depend on the processing

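No member was called under any alternative, and none of the results changed sign among those with a called value. All 394 recomputed differences of named genes kept their direction and their side of the threshold. The lowest adjusted p among them was 0.139 (limma, Grik5 for deficient minus supplemented), so their side of the threshold says little about stability. Their sizes moved more, as given for each gene above. Probe sets called over the whole array numbered 1 for deficient minus standard without a filter, and 1 for supplemented minus standard with the floor at the 30th percentile, without a trend or with array weights. For deficient minus supplemented and for the F-test the count was 2 without a filter and 0 with the values as deposited, with the filter at the 60th percentile, with either RNA ratio as a covariate and without the 3 arrays that stood apart. It was also 0 for deficient minus supplemented with only those 2 diets in the fit. Members at an unadjusted p under 0.05 numbered 19 without a filter and 1 with the filter at the 60th percentile for deficient minus standard. For supplemented minus standard they numbered 11 without a filter, 1 with the values as deposited or array weights, and 0 with the filter at the 60th percentile or the beta-actin ratio. For deficient minus supplemented they numbered 16 with the values as deposited, 6 with array weights, 2 with the filter at the 60th percentile or without the 3 arrays, and 1 with the Gapdh ratio. For the F-test they numbered 13 without a filter, 1 with the filter at the 60th percentile and 3 with array weights. The median difference of members without a filter was -0.016 for deficient minus standard and -0.020 for deficient minus supplemented, where it was -0.021 with array weights and -0.38 with the values as deposited. With the values as deposited it was 0.16 for supplemented minus standard, with 32.4% of members lower. Centring each array on its median moved the median of all probe sets to 0.17 for deficient minus supplemented and -0.11 for supplemented minus standard. The count of member genes above background was 97 with the filter at the 30th percentile and 35 at the 50th, and against the silent list 70 at its 75th percentile and 11 at its 95th. It was 53 above the 90th percentile of the control probe sets, a line added, like the shares lower, after seeing the data.

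Leaving out each array in turn gave 0 to 0 called probe sets for deficient minus standard, 0 to 2 for supplemented minus standard, 0 to 4 for deficient minus supplemented and 0 to 3 for the F-test. Members at an unadjusted p under 0.05 ran from 4 to 9, 0 to 3, 4 to 12 and 2 to 9 in that order. Their median ran from -0.30 to -0.13, -0.07 to 0.06 and -0.28 to -0.09, and the share lower from 59.7% to 79.2%, 43.1% to 58.3% and 59.7% to 79.2%. Member genes above the filter ran from 59 to 64 and above the silent level from 16 to 18. No paired analysis was possible because array numbers run on from diet to diet and none is shared. The causes of these changes were not tested.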
